A study of Mus musculus with 4 samples.

Results

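*Nupr1* and 9 genes of the integrated stress response were followed through 4 mouse oocyte libraries. They are *Nupr1*, *Atf3*, *Atf4*, *Atf5*, *Ddit3*, *Ddit4*, *Trib3*, *Chac1*, *Sesn2* and *Asns*, which makes 10 of the 21957 genes measured. *Nupr1* was chosen by its measured values, because its level moved in opposite directions at the 2 doses of the drug, so its values are a description with no test. The other 9 were chosen as well-known members of the pathway. They and the lists of related genes below were chosen with earlier results of these data known. The drug, tubastatin A (TubA), inhibits the cytoplasmic deacetylase HDAC6. The study asked whether its action is specific to HDAC6, and compared the transcriptomes of oocytes whose maturation it disturbed.

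All oocytes came from B6D2F1 (C57BL/6 x DBA) hybrid females aged 6 to 8 weeks, primed with gonadotropin, and were freed of cumulus cells with hyaluronidase. The GV library held oocytes at the germinal vesicle stage with no drug and 0 h of culture. The MII library held untreated oocytes after 12 h in M16 medium, taken only if they had extruded a polar body, although its label calls it an embryo. The TubA-10 and TubA-20 libraries held oocytes kept for the same 12 h with 10 or 20 μM TubA, and the methods state no such selection for them. These doses follow the titles, descriptions and source names. The treatment field of the labels gives the first of these libraries 20 μM and the second 11 μM. If that field were right, every statement on a lower or higher dose would turn round. The study reports more reads and more mapped genes at its lower dose than at its higher dose. Here 15440 genes were above 0 FPKM in TubA-10 and 14434 in TubA-20. Depth, estimated as described below, was 1.72 times GV in TubA-10 and 0.922 times GV in TubA-20. Both orders follow the naming by title, but the dose that each pool received was not tested. Because the study describes a block before MII at 20 μM, meiotic stage and drug cannot be told apart in comparisons of TubA-20 with MII. Comparisons of either dose with GV include the 12 h of culture, so there culture and drug cannot be told apart. By the methods RNA came from pools of 100 oocytes, although the study also describes its sequencing as done on single oocytes, so the pooling rests on the methods alone. Each condition had 1 library, so no difference could be compared with replicate error and no p-values are given.

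The integrated stress response begins with kinases that phosphorylate the initiation factor eIF2. Most protein synthesis then slows, while the mRNA of the transcription factor ATF4 is translated better because of short reading frames in its leader. ATF4, often paired with C/EBP proteins, turns on genes for amino acid supply, redox balance and feedback, and under lasting stress also *Ddit3*, which encodes CHOP. *Nupr1* encodes a small stress-induced chromatin protein that is itself a target of ATF4. A fully grown oocyte transcribes little, so during maturation mRNA levels depend largely on stored transcripts, and selection by poly(A) also reads tail length.

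Promoters of 4 genes are shown, 2 that hold the motif described next and 2 that do not. They run from 250 bases before to 50 bases after the RefSeq start (build GRCm38.p6) and are written in the direction of the gene. *Nupr1* lies at chr7:126625421-126625720 on the minus strand, *Chac1* at chr2:119350992-119351291 on the plus strand, *Ddit3* at chr10:127290543-127290842 on the plus strand and *Ddit4* at chr10:59951721-59952020 on the minus strand. Capitals mark a match to TGATGNAA, the core letters of the C/EBP-ATF response element, which falls on the opposite strand in both promoters that hold it and is therefore printed as its reverse complement.
Nupr1: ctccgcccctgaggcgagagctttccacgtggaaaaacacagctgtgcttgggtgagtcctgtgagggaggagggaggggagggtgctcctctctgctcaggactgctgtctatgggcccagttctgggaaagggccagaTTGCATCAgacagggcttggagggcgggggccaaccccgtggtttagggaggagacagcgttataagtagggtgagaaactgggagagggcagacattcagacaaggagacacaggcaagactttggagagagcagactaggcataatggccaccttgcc
Chac1: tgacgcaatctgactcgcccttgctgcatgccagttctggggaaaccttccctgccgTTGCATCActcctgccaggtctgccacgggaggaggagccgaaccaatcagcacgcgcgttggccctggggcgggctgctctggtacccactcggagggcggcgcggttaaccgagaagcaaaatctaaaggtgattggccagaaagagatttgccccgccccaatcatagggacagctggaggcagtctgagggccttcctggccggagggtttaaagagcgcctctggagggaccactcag
Ddit3: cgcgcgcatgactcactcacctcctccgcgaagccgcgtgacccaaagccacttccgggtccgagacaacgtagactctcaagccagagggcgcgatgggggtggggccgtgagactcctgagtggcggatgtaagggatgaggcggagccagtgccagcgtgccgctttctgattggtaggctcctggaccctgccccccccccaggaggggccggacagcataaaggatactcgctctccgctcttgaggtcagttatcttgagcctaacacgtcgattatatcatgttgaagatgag
Ddit4: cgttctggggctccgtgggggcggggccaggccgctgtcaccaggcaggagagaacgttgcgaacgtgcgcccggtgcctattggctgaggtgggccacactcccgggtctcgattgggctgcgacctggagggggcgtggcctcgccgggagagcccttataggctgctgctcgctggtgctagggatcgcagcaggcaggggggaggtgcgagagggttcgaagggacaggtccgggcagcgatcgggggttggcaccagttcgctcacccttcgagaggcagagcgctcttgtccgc

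The motif was searched on both strands of every promoter. It was found in 5 of the 10 members, which have 11 promoters, and in 3.97% of 32851 promoters. Members are counted here by gene and the background by promoter. The members other than *Nupr1* were chosen as known genes of the pathway that ATF4 serves. Nothing is read from the difference between the 2 shares. *Nupr1* and *Atf3* both held TGATGCAA on the opposite strand between 110 and 103 bases before the start, and *Chac1* held the same letters between 193 and 186 bases before it. *Trib3* had TGATGTAA on the opposite strand from base 14 to base 21 after the start, and *Asns* had TGATGAAA on its own strand between 23 and 16 bases before it. A cyclic AMP response-like motif, TGACGTNA, was present in *Atf3* alone among the members and in 2.93% of all promoters. The 2 motifs differ at the fourth base and cannot match the same 8 bases.

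Of the 10 members, 8 reached 1 FPKM (fragments scaled to transcript length and to all mapped fragments of the library) in at least 1 library. *Atf3* and *Atf5* stayed below it in every library. *Trib3* passed through GV alone and *Sesn2* through TubA-20 alone, so counts over the 8 genes are descriptive. Changes are log2 ratios of FPKM + 1, which understate the change of low genes, and a change past 2-fold (1 on this scale) is counted. In all, 10898 genes reached 1 FPKM in a library and form the background.

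**Figure D1:**
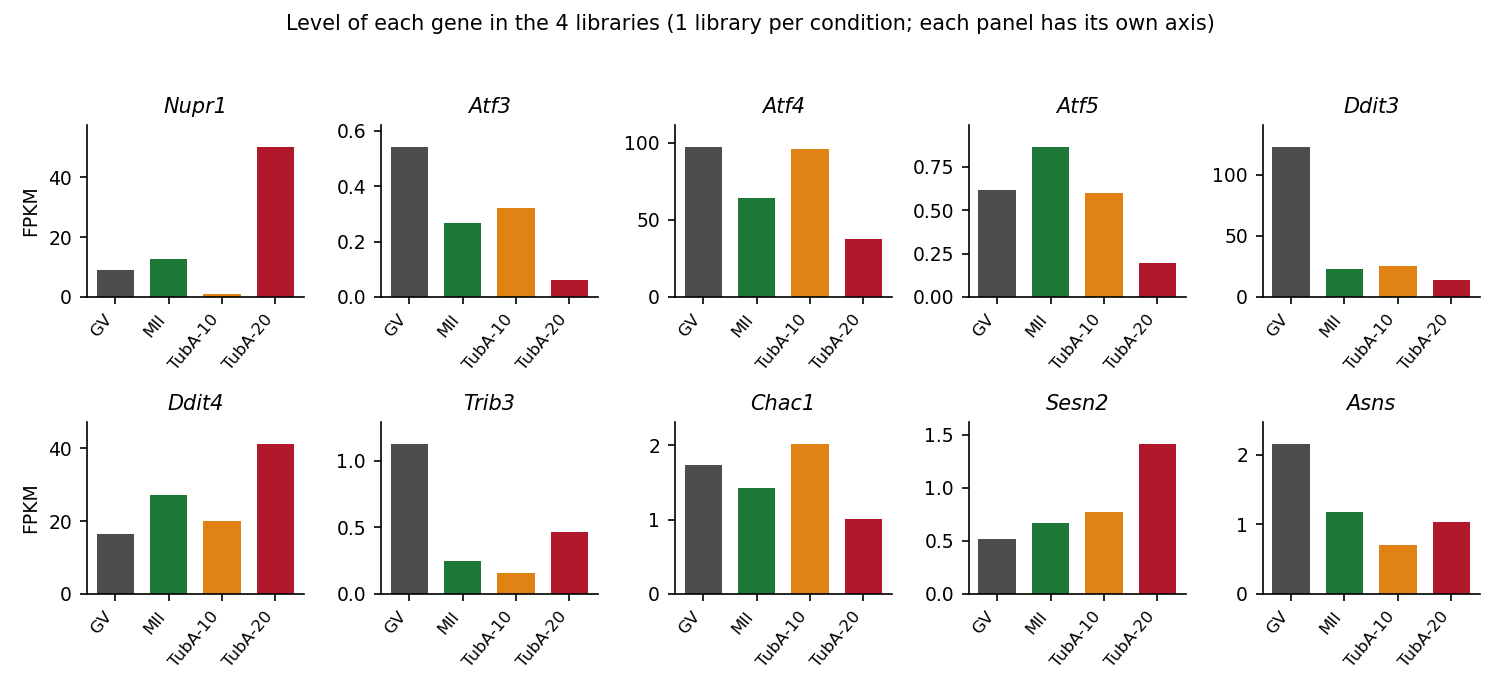
Level in FPKM (vertical axis, starting at 0 and scaled per panel) of each of the 10 genes in the GV, MII, TubA-10 and TubA-20 libraries, with 1 bar per library and no error bars because there is 1 library per condition. *Nupr1* runs from 1.14 in TubA-10 to 49.9 in TubA-20, whereas *Atf4* and *Ddit3* are lowest in TubA-20.

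*Nupr1* (ENSMUSG00000030717.9, chromosome 7, 126623249 to 126630861, minus strand) had 8.88 FPKM in GV and 12.8 in MII oocytes, 1.14 with 10 μM TubA and 49.9 with 20 μM. The gene was thus lowest at the lower dose and highest at the higher dose, with both untreated libraries in between and close together. The FPKM in TubA-20 was 43.9 times that in TubA-10, 3.91 times that in MII and 5.62 times that in GV. MII in turn had 11.2 times and GV 7.80 times the FPKM of TubA-10.

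On the log2 scale, *Nupr1* differed from MII by −2.69 at the lower dose and by 1.89 at the higher dose, comparisons that share the MII library. Among the 10898 genes it had the lowest ratio of TubA-10 to MII and the highest ratio of TubA-20 to TubA-10, which was 4.57. It ranked 8 from the top for TubA-20 against MII and 7 from the top for TubA-20 against GV, with a log2 ratio of 2.37. The log2 ratio to GV was −2.21 at the lower dose and 0.48 in MII. These are the values for which the gene was picked.

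The lowest value rests on few reads. From the lowest FPKM values of genes with 1 annotated transcript, the amount that 1 fragment adds was estimated, and by this estimate *Nupr1* had about 83.1 fragments in GV and 186 in MII oocytes, 18.3 with 10 μM TubA and 431 with 20 μM. By the same measure MII and TubA-10 were deeper than GV, at 1.55 and 1.72 times, and TubA-20 was near it, at 0.922 times. The estimate is rough and sets no order within these pairs.

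Only 3 genes were past 2-fold lower in TubA-10 and past 2-fold higher in TubA-20 than MII, namely *Nupr1*, *Gm10197* and *Gm17349*, of which the last 2 were singled out after their values were seen. Against both GV and MII, *Nupr1* was the 1 gene to do so. This is the pattern that chose it and supports nothing further.

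**Figure D2:**
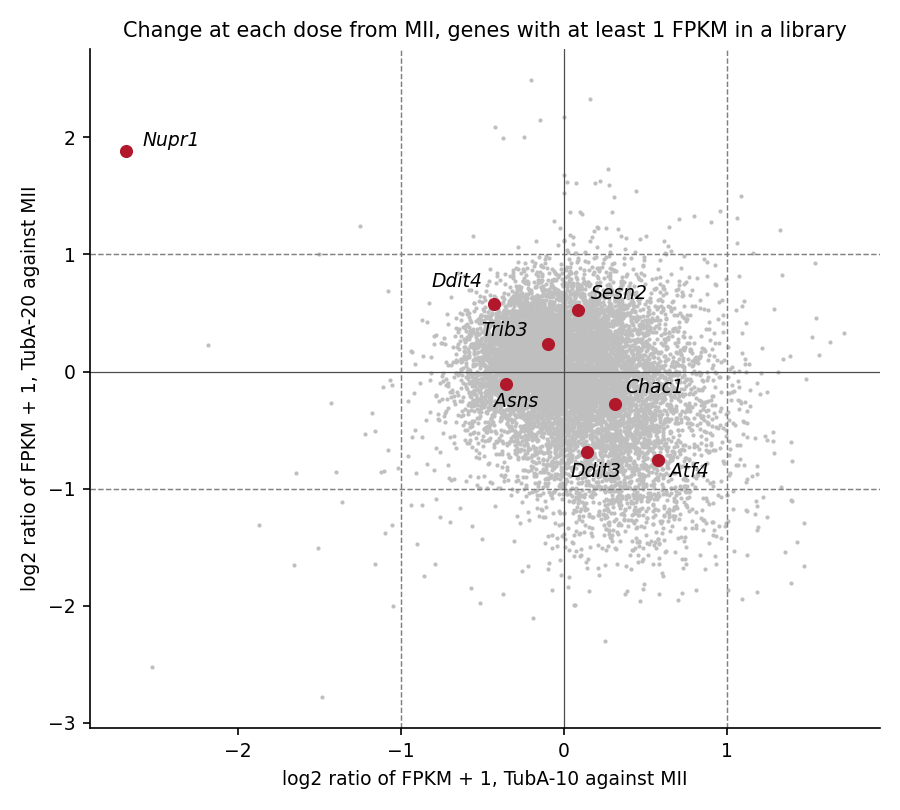
Log2 ratio of FPKM + 1 against MII for TubA-10 (horizontal axis) and TubA-20 (vertical axis), with 10898 genes in grey, the 8 members that reached 1 FPKM in red and dashed lines at 2-fold. *Nupr1* stands at −2.69 and 1.89, while the other 7 labelled genes lie within 2-fold at both doses.

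The oocyte identity of the libraries was checked with marker genes. All 10 oocyte markers, such as *Gdf9*, *Zp3* and *H1foo*, exceeded 1 FPKM in every library, with summed levels of 15356 in GV and 20569 in MII oocytes, 18443 with 10 μM TubA and 23110 with 20 μM. The sums hide opposite changes, since *Zp2* and *Zp3*, which encode coat proteins of the egg, were past 2-fold lower in TubA-20 than in MII, with log2 ratios of −1.41 and −1.21. The 15 cumulus and granulosa markers summed to between 22.5 and 29.6 FPKM, with the defining gene *Foxl2* at 0 in every library and 7 of them below 1 FPKM throughout. *Cyp19a1* and *Nr5a2* made up most of these sums, at 6.14 to 10.3 FPKM and 9.12 to 11.5 FPKM. Blood and macrophage markers summed to between 1.64 and 2.30 FPKM, with all 4 globin genes at 0, and 10 fibroblast, theca and endothelial markers to between 7.87 and 14.9 FPKM, most of it *Pecam1*.

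Some cumulus genes had the same order of the cultured libraries as *Nupr1*. Of the 8 markers that reached 1 FPKM, 5 were lower in TubA-10 and higher in TubA-20 than in MII, as were 4 of the 10 oocyte markers and 29.2% of the 10898 genes. Since *Ptx3*, *Tnfaip6* and *Fst*, 3 of the 5, reached 1 FPKM in TubA-20 alone, nothing is read from that count. *Nr5a2* ran the other way, at 10.1 FPKM in MII, 11.5 with 10 μM TubA and 9.12 with 20 μM. *Ptx3*, which stabilises the cumulus matrix, was listed at 0 in GV and 0.555 FPKM in MII oocytes, 0 with 10 μM TubA and 1.19 with 20 μM. *Tnfaip6*, which crosslinks that matrix, had 0, 0.338, 0.169 and 1.57 FPKM in the same order of libraries. *Fst*, an activin inhibitor, had 0.929, 0.521, 0.0220 and 1.04 FPKM. The summed markers, at 29.6 FPKM in GV and 25.0 in MII oocytes, 22.5 with 10 μM TubA and 27.8 with 20 μM, had their highest value in GV through *Inha*, an inhibin subunit at 7.50 FPKM there and between 0.239 and 0.314 in the other libraries. Without *Inha* the sums were 22.1, 24.7, 22.2 and 27.6 FPKM, with GV and TubA-10 level and TubA-20 highest. Their part in the *Nupr1* values was not tested, and in bulk RNA a few more cells of a type cannot be told apart from more RNA per cell.

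The genes nearest to *Nupr1* were sought by the distance between log2(FPKM + 1) profiles, each centred on its mean over the 4 libraries, among 7896 genes with at least 5 FPKM in a library. In order they were *Gm10146* (distance 1.86), *Gm8186* (1.87), *mt-Co3* (1.93), *Spp1* (2.03) and *Gm10320* (2.08). *Spp1*, which encodes the secreted glycoprotein osteopontin, had 0.0633 FPKM in GV and 4.23 in MII oocytes, 0.152 with 10 μM TubA and 5.11 with 20 μM. It resembled *Nupr1* in its low TubA-10 value but lay near 0 in GV. *mt-Co3*, a mitochondrially encoded cytochrome oxidase subunit, had 0.110, 0.232, 0.0697 and 5.92 FPKM. The *Gm* entries may share reads with near-identical copies and are uncertain. A distance near 2 is large beside the 4.57 that *Nupr1* spans, so none of them followed it closely, and ranking by Pearson r over the 4 libraries gave 5 other genes.

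**Figure D3:**
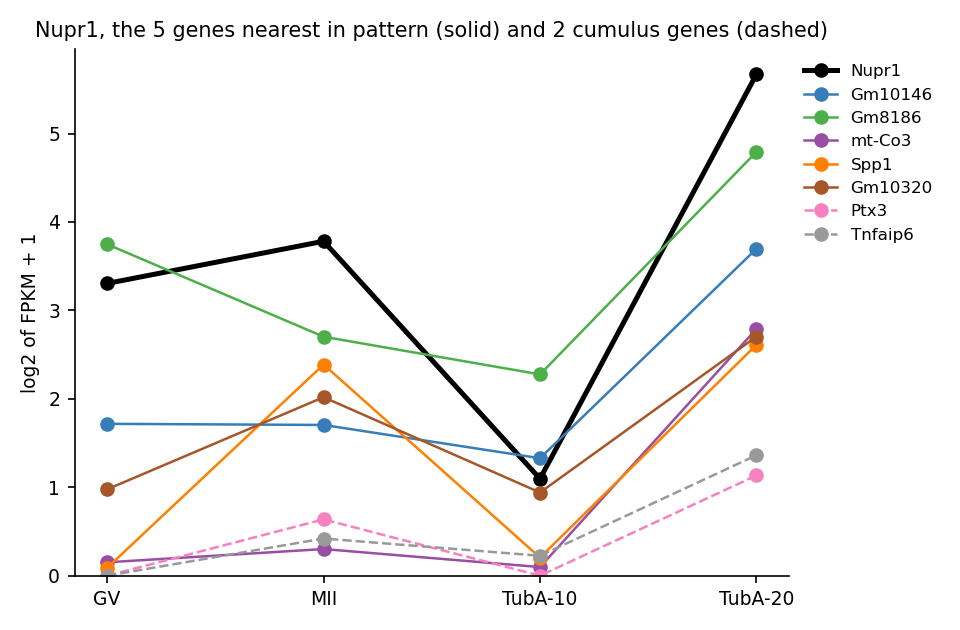
Log2 of FPKM + 1 (vertical axis) in the 4 libraries for *Nupr1*, the 5 genes nearest to it in pattern (solid lines) and the cumulus genes *Ptx3* and *Tnfaip6* (dashed lines), with 1 point per library. The 7 other genes were picked for their likeness to *Nupr1* or for this order of libraries, so their shared order is set by that choice. Their log2 ratios of TubA-10 to MII run from −2.18 in *Spp1* to −0.20 in *Tnfaip6*, against −2.69 in *Nupr1*.

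Among the transcription factors, *Atf4* (ENSMUSG00000042406.7, chromosome 15, 80255184 to 80257541, plus strand), which encodes the central effector, had 97.0 FPKM in GV and 64.1 in MII oocytes, 96.1 with 10 μM TubA and 37.6 with 20 μM. GV and TubA-10 were level, MII was lower and TubA-20 lowest. TubA-20 was past 2-fold below GV (log2 −1.34) and below TubA-10 (−1.33), and within 2-fold of MII (−0.75). The log2 ratio of TubA-10 to GV, −0.01, turned to 0.06 when the libraries were set to equal FPKM sums and to 0.25 with equal *Gapdh*, so its sign has no meaning.

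*Ddit3* (ENSMUSG00000025408.15, chromosome 10, 127290774 to 127296288, plus strand) encodes CHOP, a factor that promotes cell death under lasting stress. It had 123 FPKM in GV and 22.7 in MII oocytes, 25.2 with 10 μM TubA and 13.7 with 20 μM. The gene was thus far higher in GV than in any of the 3 cultured libraries, of which TubA-20 was lowest. TubA-20 and TubA-10 differed by a log2 ratio of −0.83, and by −1.02, past 2-fold, with equal *Gapdh*. Its log2 ratios to GV were −2.38 in the MII library, −2.24 at 10 μM and −3.07 at 20 μM, and those to MII were 0.14 and −0.69 at the 2 doses. The annotation places *Mars*, the methionyl-tRNA synthetase gene, on the opposite strand over part of *Ddit3*, and *Mars* fell from 21.5 FPKM in GV to between 4.88 and 9.49 in the cultured libraries. A second *Ddit3* model on the same strand, not analysed here, could share its reads. The libraries were made and counted by strand.

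*Atf3*, a stress-induced partner and repressor, had 0.540 FPKM in GV and 0.266 in MII oocytes, 0.320 with 10 μM TubA and 0.0604 with 20 μM, or an estimated 12.1, 9.25, 12.3 and 1.25 fragments. *Atf5*, a relative of *Atf4* known for its role in mitochondrial stress, had 0.619, 0.862, 0.602 and 0.196 FPKM. Both were lowest in TubA-20, at levels too low for a firm ratio. *Atf5* overlaps *Nup62*, a nuclear pore gene on the opposite strand that had between 48.9 FPKM in GV and 143 in TubA-20. Of the 5 transcription factor genes, *Nupr1* was the 1 with a TubA-20 level above both GV and MII, part of the pattern that chose it. *Atf4* and *Ddit3* were lower there. So were *Atf3* and *Atf5*, but on an estimated 1.25 and 3.70 fragments in TubA-20.

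Among the target and feedback genes, *Ddit4* (ENSMUSG00000020108.3, chromosome 10, 59949669 to 59951834, minus strand), an inhibitor of mTORC1 signalling, had 16.4 FPKM in GV and 27.2 in MII oocytes, 19.9 with 10 μM TubA and 41.0 with 20 μM. Its level was highest in TubA-20, 2.501 times GV, and TubA-10 lay below MII, so the order of the 3 cultured libraries was that of *Nupr1* on a smaller scale. The log2 ratios to MII were −0.43 at 10 μM and 0.58 at 20 μM. Between the doses the ratio was 1.01, just past 2-fold, and it fell to between 0.82 and 0.94 under 3 of the 4 other scalings of the libraries.

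*Sesn2*, a leucine sensor that also restrains mTORC1, had 0.515 FPKM in GV and 0.674 in MII oocytes, 0.775 with 10 μM TubA and 1.41 with 20 μM. Its highest value was also in TubA-20, but TubA-10 was not below MII. *Trib3*, a pseudokinase that curbs ATF4 activity, had 1.12, 0.245, 0.161 and 0.464 FPKM in the same order, which rests on an estimated 6.30 to 25.7 fragments. It was highest in GV, and TubA-20 was above TubA-10.

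*Chac1*, an enzyme that degrades glutathione, had 1.73 FPKM in GV and 1.43 in MII oocytes, 2.01 with 10 μM TubA and 1.005 with 20 μM. It was highest at the lower dose and lowest at the higher dose, the reverse of *Nupr1*, though no ratio to GV or MII passed 2-fold. *Asns*, asparagine synthetase, had 2.15, 1.18, 0.707 and 1.03 FPKM. GV was highest there, and the cultured libraries lay between 0.707 and 1.18.

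Counted over the 8 members that reached 1 FPKM, *Ddit3* was the 1 member past 2-fold lower in MII than in GV and none was higher, where 16.8% of the 10898 genes were past 2-fold lower and 6.14% higher. In TubA-10 against GV, 2 members were lower (*Nupr1* and *Ddit3*) and none higher, beside 11.3% and 1.5% of all genes. In TubA-20 against GV, 2 were higher (*Nupr1* and *Ddit4*) and 2 lower (*Atf4* and *Ddit3*), beside 15.3% and 23.6%. The members thus moved both ways in TubA-20, as the background did. Against MII, *Nupr1* alone passed 2-fold at either dose, lower in TubA-10 and higher in TubA-20, where 0.257% and 0.661% of all genes did so and 1.04% and 4.92% passed in the other direction. Between the doses, *Nupr1* and *Ddit4* were higher in TubA-20 and *Atf4* lower, beside 1.33% and 11.1% of all genes. Since *Nupr1* was picked on these contrasts, nothing is read from its part in the counts.

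The median log2 ratio over the 8 members that reached 1 FPKM relative to GV was −0.35 in the MII library, −0.44 at 10 μM and −0.49 at 20 μM, where all genes had 0.04, 0.08 and 0.07. Relative to MII the 2 doses had −0.01 and 0.07, with all genes at 0.01 and 0.00. *Nupr1*, picked on these contrasts, is among the 8. Without it the medians against GV were −0.53 in the MII library, −0.013 at 10 μM and −0.54 at 20 μM. Those against MII were 0.08 at 10 μM and −0.10 at 20 μM, so nothing is read from the medians. With equal *Gapdh* the same 8 members had medians of −0.26 for TubA-10 against GV and 0.0062 for TubA-20 against MII.

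**Figure D4:**
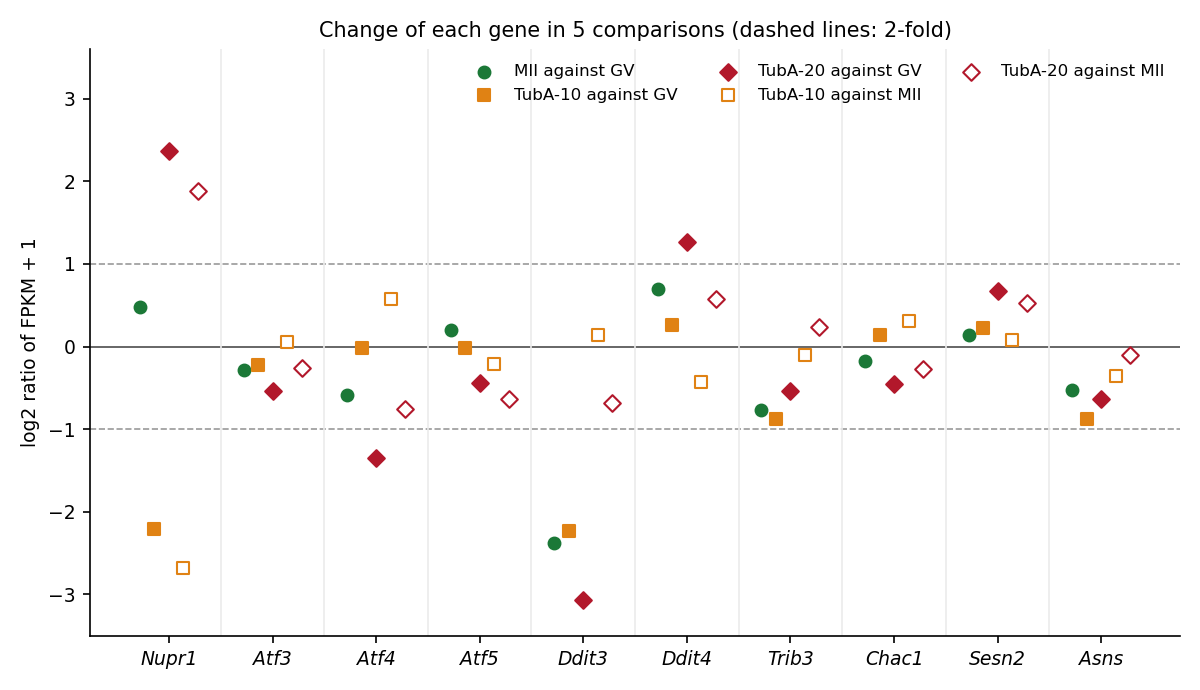
Log2 ratio of FPKM + 1 (vertical axis) of each of the 10 genes for MII, TubA-10 and TubA-20 against GV (filled symbols) and for TubA-10 and TubA-20 against MII (open symbols), each from 1 library per condition, with dashed lines at 2-fold. *Nupr1* falls on opposite sides at the 2 doses, *Ddit3* is below GV in all 3 cultured libraries, and most other points lie within 2-fold.

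The lists of related genes are read against all 10898 genes, of which 15.3% were past 2-fold higher and 23.6% lower in TubA-20 against GV, with a median of 0.07, and 0.661% higher and 4.92% lower in TubA-20 against MII. In MII against GV, which involves no drug, 6.14% were higher and 16.8% lower. Upstream of ATF4, several transcripts of the eIF2 kinase list were highest in TubA-20. *Eif2ak3*, which encodes the endoplasmic reticulum kinase PERK, had 9.71 FPKM in GV and 20.7 in MII oocytes, 13.3 with 10 μM TubA and 27.8 with 20 μM. *Eif2ak1*, the heme-regulated kinase, had 42.3, 60.9, 53.0 and 76.0 FPKM. *Oma1*, the mitochondrial protease that signals to it, had 31.96, 40.9, 45.9 and 61.1 FPKM. All 3 were highest in TubA-20. Of 8 genes in this list 6 reached 1 FPKM, and in TubA-20 against GV 2 of them were past 2-fold higher and none lower, with a median of 0.87. In MII against GV 1 was higher and none lower, with a median of 0.43. In TubA-20 against MII none of the 6 passed 2-fold, with a median of 0.33. *Gcn1*, an activator of the kinase GCN2, had 6.12, 6.84, 6.77 and 4.67 FPKM and did not share this order.

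The eIF2 and eIF2B subunits, the kinases' substrate and its exchange factor, divided into higher and lower genes. *Eif2s2*, the beta subunit of eIF2, had 298 FPKM in GV and 397 in MII oocytes, 413 with 10 μM TubA and 604 with 20 μM. *Eif2b4*, the delta subunit of eIF2B, had 202, 31.3, 48.7 and 14.8 FPKM, a log2 ratio of −1.03 between TubA-20 and MII. *Eif2b5*, its catalytic epsilon subunit, had 13.8, 3.43, 2.499 and 1.67 FPKM. In TubA-20 against GV, 1 of the 8 genes was past 2-fold higher and 4 lower. In MII against GV, without drug, none was higher and 4 were lower, with a median of −1.07. TubA-20 against MII had none higher and 1 lower, with a median of 0.07. In TubA-20 against GV, the phosphatase subunits that reverse the phosphorylation gave 1 gene of 5 past 2-fold higher and none lower. None of them passed 2-fold in MII against GV. *Ppp1r15a*, which encodes the stress-induced subunit GADD34, had 72.4 FPKM in GV and 89.9 in MII oocytes, 83.2 with 10 μM TubA and 123 with 20 μM. The catalytic subunit genes *Ppp1cb* and *Ppp1cc* had 7.53, 13.4, 13.0 and 20.2 FPKM and 22.1, 43.3, 33.3 and 36.2 FPKM, so *Ppp1cb* was highest in TubA-20 and *Ppp1cc* in MII.

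Among 15 partner and related bZIP factors, 12 reached 1 FPKM, and in TubA-20 against GV 3 were past 2-fold higher and 3 lower. In MII against GV 2 were higher and 1 lower. *Cebpb*, a dimer partner of ATF4, had 61.6 FPKM in GV and 16.9 in MII oocytes, 31.5 with 10 μM TubA and 19.4 with 20 μM. *Jund*, an AP-1 subunit, had 5.93, 3.70, 3.17 and 9.19 FPKM and was past 2-fold above MII in TubA-20 (log2 1.12). It was also lower in TubA-10 than in MII, as *Nupr1* was, by −0.17. *Cebpd*, a C/EBP family member, had 5.99, 9.70, 8.72 and 14.2 FPKM. *Atf1*, a CREB relative, had 25.0, 73.5, 52.4 and 71.3 FPKM and so was low in GV alone. *Junb*, another AP-1 subunit, had 2.09, 0.577, 1.54 and 0.250 FPKM.

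Of 26 further stress targets of ATF4, 16 reached 1 FPKM, and in TubA-20 against MII 1 was past 2-fold higher and none lower. That gene was *Gdf15*, which encodes a circulating stress cytokine, with 1.75 FPKM in GV and 1.12 in MII oocytes, 1.92 with 10 μM TubA and 3.65 with 20 μM. *Slc3a2*, the heavy chain of amino acid transporters, had 98.8, 142, 135 and 173 FPKM. *Slc6a9*, the glycine transporter GLYT1 of oocytes, had 37.4, 12.7, 15.4 and 6.91 FPKM. *Adm2*, a peptide hormone gene, had 25.1, 6.51, 11.95 and 11.2 FPKM. Against GV, TubA-20 had 2 of these targets past 2-fold higher and 4 lower, with a median of 0.43. MII against GV had none higher and 3 lower, with a median of 0.38.

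The serine, proline and one-carbon enzymes had 7 of 10 genes at 1 FPKM or above in a library, of which 1 was past 2-fold higher and 1 lower in TubA-20 against GV. In MII against GV none was higher and 1 lower. *Phgdh*, the first enzyme of serine synthesis, had 23.8 FPKM in GV and 6.30 in MII oocytes, 9.37 with 10 μM TubA and 2.08 with 20 μM, and its log2 ratio of TubA-20 to MII was −1.25. *Mthfd2*, a mitochondrial folate enzyme, had 116, 181, 178 and 216 FPKM. The steps of serine synthesis did not move alike, since *Psph*, the last of them, had 4.57, 3.79, 4.07 and 8.38 FPKM. *Shmt2*, which passes a carbon unit from serine to folate, had 29.1, 29.7, 27.8 and 43.8 FPKM.

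In the IRE1 and ATF6 arms of the unfolded protein response, 21 of 22 genes reached 1 FPKM, and none passed 2-fold in either direction at either dose against MII. The median log2 ratio to MII was −0.18 at 10 μM and 0.03 at 20 μM. *Manf*, a secreted stress-induced factor, had 321 FPKM in GV and 53.4 in MII oocytes, 50.8 with 10 μM TubA and 54.5 with 20 μM. It resembled *Ddit3* in being high in GV alone. *Creld2*, a chaperone-like target of ATF6, had 328, 384, 422 and 420 FPKM. Of all 22, 11 were higher and 11 lower in TubA-20 than in MII. The 3 with the largest changes were lower in TubA-20, within 2-fold. *Pdia4*, a disulfide isomerase, had 31.7, 16.2, 22.5 and 9.95 FPKM, *Dnajb9*, a cochaperone, had 2.73, 2.26, 2.88 and 1.34, and *Hsp90b1*, which encodes GRP94, had 112, 146, 107 and 107.6. Of 8 mitochondrial unfolded protein response genes, in the comparison of TubA-20 with GV 4 were past 2-fold lower and none higher, beside 23.6% and 15.3% of all genes. In MII against GV 3 were lower and none higher, and in TubA-20 against MII none passed 2-fold. *Clpp*, a matrix protease subunit, had 24.1, 7.20, 11.0 and 4.08 FPKM. The protease gene *Lonp1* had 50.8, 20.9, 23.3 and 14.6 FPKM, and the cochaperone gene *Dnaja3* had 15.3, 7.52, 11.6 and 4.84. All 3 were highest in GV and lowest in TubA-20, whereas *Hspe1*, the most abundant of the list, had 339, 306, 322 and 347 FPKM.

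Close relatives of the members were low or differed from them. *Chac2* had 6.61 FPKM in GV and 13.6 in MII oocytes, 9.75 with 10 μM TubA and 12.3 with 20 μM, above *Chac1* in every library. *Trib2* had 3.81, 7.59, 5.22 and 8.70 FPKM, and *Ddit4l*, a relative of *Ddit4*, had 1.10 in GV and 0.234 in TubA-20. *Sesn3*, a relative of *Sesn2*, had 4.197, 5.02, 4.18 and 3.34 FPKM. None of the 4 relatives that reached 1 FPKM passed 2-fold against MII at either dose.

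**Figure D5:**
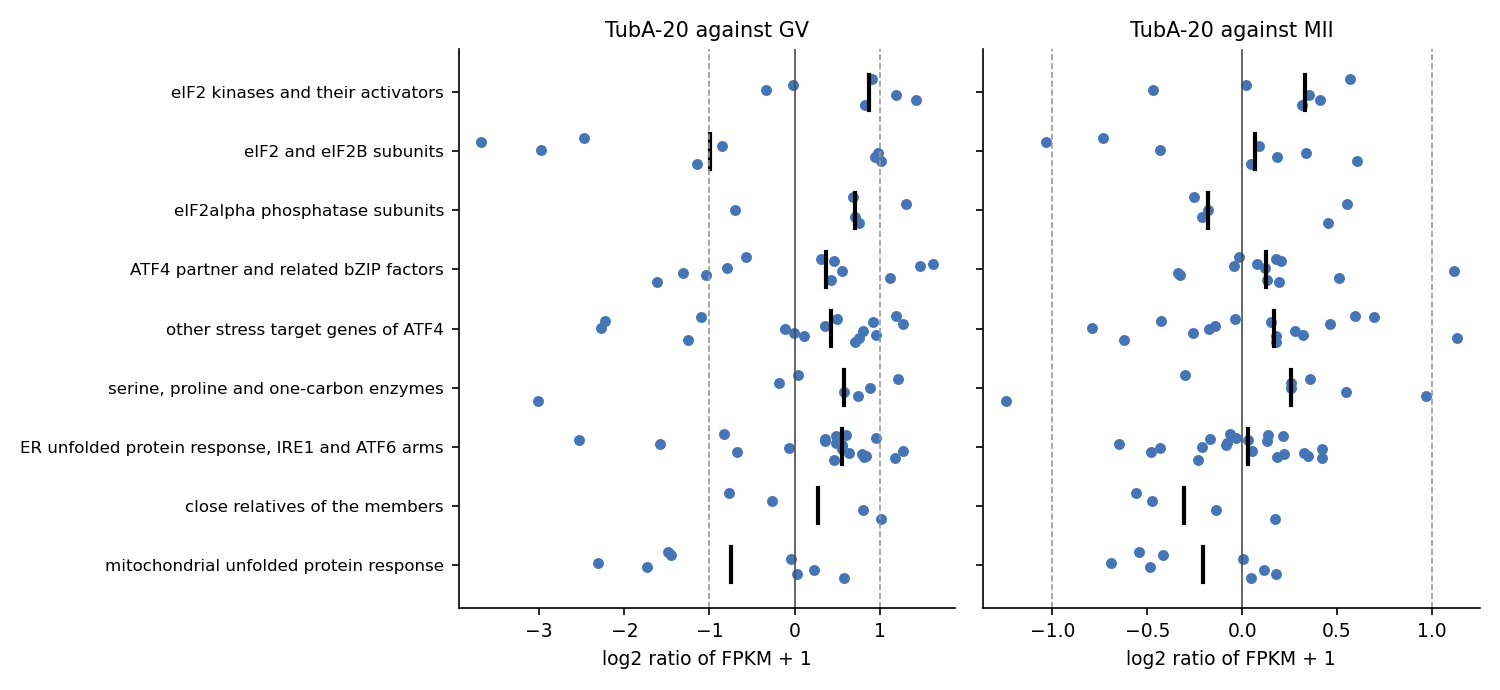
Log2 ratio of FPKM + 1 (horizontal axis) for TubA-20 against GV (left) and against MII (right) in 9 lists of related genes, with 1 point per gene that reached 1 FPKM, a black bar at each list's median and dashed lines at 2-fold. Against MII nearly all points lie within 2-fold, while against GV the eIF2 and eIF2B subunits run from −3.68 for *Eif2b4* to 1.02 for *Eif2s2*.

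Transcript features were counted on the longest coding transcript of each gene. The leader of *Atf4* held 3 upstream ATG triplets, those of *Atf5* and *Ddit3* held 2 each, and those of *Nupr1*, *Atf3*, *Asns* and *Sesn2* held 1. *Chac1*, *Ddit4* and *Trib3* had none. Of 10669 genes, 52.6% had at least 1. Members were chosen from a pathway in which such leaders play a known part, so nothing is read from this count. The elements TTTTAT and TTTTAAT, through which CPEB proteins control tail length in maturing oocytes, were searched in the last 150 bases after the coding region, or in all of it where shorter. None of the 10 members held either, while 24.6% of 10811 genes did. Absence says only that these letters are not in that window.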

How the data were processed

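RNA-seq was made from 4 samples of oocytes, pooled according to the methods, with oligo(dT) selection, a strand-specific kit and paired-end reads. The authors deposited FPKM values, already divided by transcript length and mapped fragments, with mm10 as the build. The submitters' processing notes name STAR 2.5.0, Cufflinks and Cuffdiff 2.2.1. Read counts were not used here, so depth is an estimate, taken as the 5th percentile of FPKM times length over genes with 1 transcript. The labels name TRIzol and the methods PicoPure for RNA extraction. The titles give 10 and 20 μM TubA, as used here, whereas the treatment field of these 2 samples reads 20 and 11 μM, the opposite order.

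The 21959 entries were joined by identifier to GENCODE symbols, 165 stayed without one, and entries sharing a symbol were summed. Each member had 1 entry. Ratios are log2 of FPKM + 1 with no further scaling, a minimum of 1 FPKM in at least 1 library and a 2-fold threshold. All 10 members matched a RefSeq promoter. Besides the members, the text names per list the gene with the highest mean, the 3 with the largest change of TubA-20 against MII and the largest of MII against GV, plus the 5 genes nearest to *Nupr1* and some of the marker genes. Other genes (*Mars*, *Nup62*, *Gm10197*, *Gm17349*) were chosen after their values were seen. Members and lists were chosen with earlier results of these data known. Alternatives were pseudocounts of 0.1 and 0.01, 4 scalings, the highest entry per symbol, other minimums and 3-fold. The fragment estimate, upstream ATG, tail elements, medians without *Nupr1* and marker sums without *Inha* were added after seeing the data. Python 3.11.15 with numpy 2.4.6, pandas 2.3.3 and matplotlib 3.10.9 was used, and the calculations were tested on simulated data.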

Additional observations from a re-analysis of the deposited data

Results flagged for a closer look

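For 6 of the 8 members that reached 1 FPKM, TubA-10 and TubA-20 lay on opposite sides of MII, with 1 library each, and the difference between the doses was not tested. Of all 10898 genes, 29.2% lay below MII at the lower dose and above it at the higher dose and 30.6% the other way round, so lying on opposite sides was common. *Nupr1* was lower at the lower dose and higher at the higher dose, a log2 ratio of TubA-20 to TubA-10 of 4.57. *Ddit4* (1.01) and *Trib3* (0.33) lay the same way round. *Atf4* (−1.33), *Ddit3* (−0.83) and *Chac1* (−0.59) lay the other way round, higher than MII at the lower dose and lower at the higher dose. Both doses are compared with the same MII library.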

How the results depend on the processing

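All 42 alternative values of *Nupr1* kept their direction and their side of 2-fold. Those from the highest entry per symbol could not differ, because each member had 1 entry. The gene was picked on these values, so their steadiness supports nothing further. Pseudocounts of 0.1 and 0.01 raised the members lower than GV from 1 to 2 in MII and from 2 to 4 in TubA-10, while the share of all genes rose from 16.8% to 21.4% and 21.8% in MII and from 11.3% to 15.2% and 15.7% in TubA-10. With them those lower in TubA-20 went from 2 to 3 and 4 (all genes from 23.6% to 28.5% and 28.9%), those higher in TubA-20 than in GV from 2 to 3 with either (15.3% to 20.3% and 20.96%) and those higher in TubA-20 than in TubA-10 from 2 to 3 with either (1.33% to 2.88% and 3.29%). With 0.01 those higher in TubA-20 than in MII from 1 to 2 (all genes from 0.661% to 2.24%). These additions (*Trib3*, *Asns* and *Sesn2*) have at most 2.15 FPKM in any library. A 3-fold threshold left 1 member higher and 1 lower in TubA-20 than in GV, beside 1.06% and 13.8% of all genes, and 1 higher and 0 lower in TubA-20 than in TubA-10, beside 0.138% and 3.12%. Setting the median change to 0, equal FPKM sums or equal *Gapdh* left 1 member higher in TubA-20 than in TubA-10 (0.899%, 0.882% and 0.563% of all genes), since *Ddit4* came to 0.94, 0.92 and 0.82, and equal *Gapdh* made 2 lower (15.2% of all genes), with *Ddit3* at −1.02. The member median of TubA-10 against GV was 0.091 with equal *Gapdh* and −1.11 with a minimum of 5 FPKM. With that minimum MII and TubA-20 against GV had −0.056 and −0.036, and with equal *Gapdh* MII had −0.032. That of TubA-20 against MII was −0.20 with equal *Gapdh*, −0.18 without a minimum and −0.056 with 5 FPKM, and that of TubA-20 against TubA-10 was −0.033 without a minimum. Without a minimum *Atf3* and *Atf5* enter, while with 5 FPKM *Nupr1*, *Atf4*, *Ddit3* and *Ddit4* alone remain. Under equal *Gapdh* *Atf5* passes the minimum and joins the 8 members. Over the 8 members that passed unscaled, a choice made after seeing the data, equal *Gapdh* gave −0.26 for TubA-10 against GV and 0.0062 for TubA-20 against MII, and turned TubA-10 against MII from −0.0081 to 0.00103. Without *Nupr1*, also chosen after seeing the data, the median of TubA-10 against GV was −0.013, and those of TubA-10 and TubA-20 against MII were 0.0847 and −0.104. Of the 5 genes nearest to *Nupr1*, 4 were shared with a pseudocount of 0.1 and 0 with Pearson r. *Atf4* and *Atf5* changed sign in TubA-10 against GV, to 0.06 and 0.01 with equal sums and 0.25 and 0.09 with equal *Gapdh*. Equal *Gapdh* moved the median of genes at or above 1 FPKM in every library from 0.13 to 0.32 in MII and from 0.14 to 0.37 in TubA-10 against GV. No paired analysis was possible because each condition had 1 library and no result comes from a test. With no replicates no ratio is firm, least of all those that rest on few fragments. The level of 1 FPKM does not mark these off. In MII *Sesn2* had 0.674 FPKM on an estimated 41.1 fragments. In TubA-10 *Nupr1* had 1.14 FPKM on 18.3.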
